A study of Mus musculus with 53 samples.

Results

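The cyclins, the cyclin-dependent kinases (CDKs) and the CDK inhibitors of the mouse were described in the embryonic cortex. Members were the protein-coding genes of GENCODE M21 whose symbols match the name patterns of these families, with a pair of matching genes left out by the rule itself. This gave 47 members among 20230 protein-coding genes and 37991 gene IDs. They comprised 20 cyclins, 18 kinases, 5 inhibitors of the INK4 and CIP/KIP types, the phosphatase gene Cdkn3, and 3 genes that match by name only (Cdkn2aip, Cdkn2aipnl and Ccnb1ip1). The inhibitor gene Cdkn2d was not analysed here. The series holds 53 libraries in 19 groups of neurons, astrocytes and brain tissue, and its aim was to relate neuronal activity and plasticity to histone turnover and transcription. The values used here are those of E16.5 cortex from C57bl/6 embryos, labelled as an unstimulated control, as 1 authors' mean of 3 libraries per gene. No transgene or other treatment is named for this group, and neither the sex nor the number of embryos behind each library is given in the labels. As a mean was all that was used, levels carry no replicate SD and comparisons carry no test. The other 50 libraries are not analysed here.

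A cyclin binds a CDK and switches it on, and the pair then phosphorylates its targets. D-type cyclins with Cdk4 or Cdk6 act in G1 on the retinoblastoma protein, E-type and A-type cyclins with Cdk2 act at the start and during S phase, and A-type and B-type cyclins with Cdk1 drive mitosis. A second branch of the same families works at RNA polymerase II: Cdk7 with cyclin H, Cdk8 or Cdk19 with cyclin C in Mediator, Cdk9 with cyclin T, Cdk12 and Cdk13 with cyclin K, and Cdk11 with cyclin L. In the embryonic cortex during neurogenesis, cycling radial glia and intermediate progenitors lie beside neurons that have left the cycle, while every cell transcribes. In bulk tissue, a low level in every cell and a high level in a few cells cannot be told apart.

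Levels of most members are given on 2 scales, and many of those of other genes by RPKM only, an order that need not hold on the second scale. The deposited RPKM (reads scaled to gene length in kilobases and to library size) divides by the whole gene span, introns included. Of 783 low values of multi-exon genes, 667 (85.2%) lay within 0.5% of the worth of 1 read in 1 of 3 libraries by span. By exon length 41 of 1923 (2.13%) did. The worth of 1 read was taken from the 3 fullest peaks of the span-scaled values themselves, and no peaks were sought by exon length. The second scale, called here the exon-based level, multiplies RPKM by span and divides by the union of the gene's exons. It is scaled to library size in the same way and takes all counted reads to lie in exons. Whether reads in introns were counted is not known, and any such reads would raise the exon-based level. The same peaks gave libraries of 51.3 M, 64.8 M and 71.6 M reads (M, 1e6), 188 M together, from which reads per member were estimated. A count of 0 would allow up to 3 reads, or 0.0160 RPM (reads per M reads). Intervals below are 95% Poisson intervals of these estimated reads and cover counting error only.

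The tissue carried markers of cortex, of progenitors and of neurons. Of the fixed marker lists, all 6 cortex genes, all 8 radial glia genes, all 5 intermediate progenitor genes and 5 of 6 neuron genes reached 1 RPKM. Markers of other cells were present too: 4 of 5 red blood cell genes, 1 of 5 endothelial genes and 1 of 5 microglial genes reached 1 RPKM, and none of 5 meningeal genes did. By the exon-based level all 5 red blood cell, all 5 endothelial and all 5 microglial genes reached 1, and again no meningeal gene did. Of all protein-coding genes, 31.6% reached 1 RPKM and 54% an exon-based level of 1. Red blood cell genes ran from 0.234 to 53.6 RPKM, endothelial genes from 0.1002 to 17.3, microglial genes from 0.274 to 1.03 and meningeal genes from 0.0223 to 0.436 RPKM, with none listed at 0. Their part in the levels below was not tested.

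Most members stood above the median protein-coding gene. On the deposited scale 27 of 47 members reached 1 RPKM, where 31.6% of protein-coding genes did. By the exon-based level 38 of 47 reached 1, where 54% of protein-coding genes did. No member was listed at 0, against 15.3% of protein-coding genes, although 5 members rested on fewer than 50 estimated reads. The median member stood at 1.46 RPKM and at an exon-based level of 6.05, while the median protein-coding gene stood at 0.213 RPKM and 1.57. On the deposited scale 36 of 47 members lay above the median protein-coding gene, and 37 did so by the exon-based level. The range was wide, from Cdk15 at 0.000374 RPKM to Cdk4 at 66.7 RPKM.

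**Figure D1:**
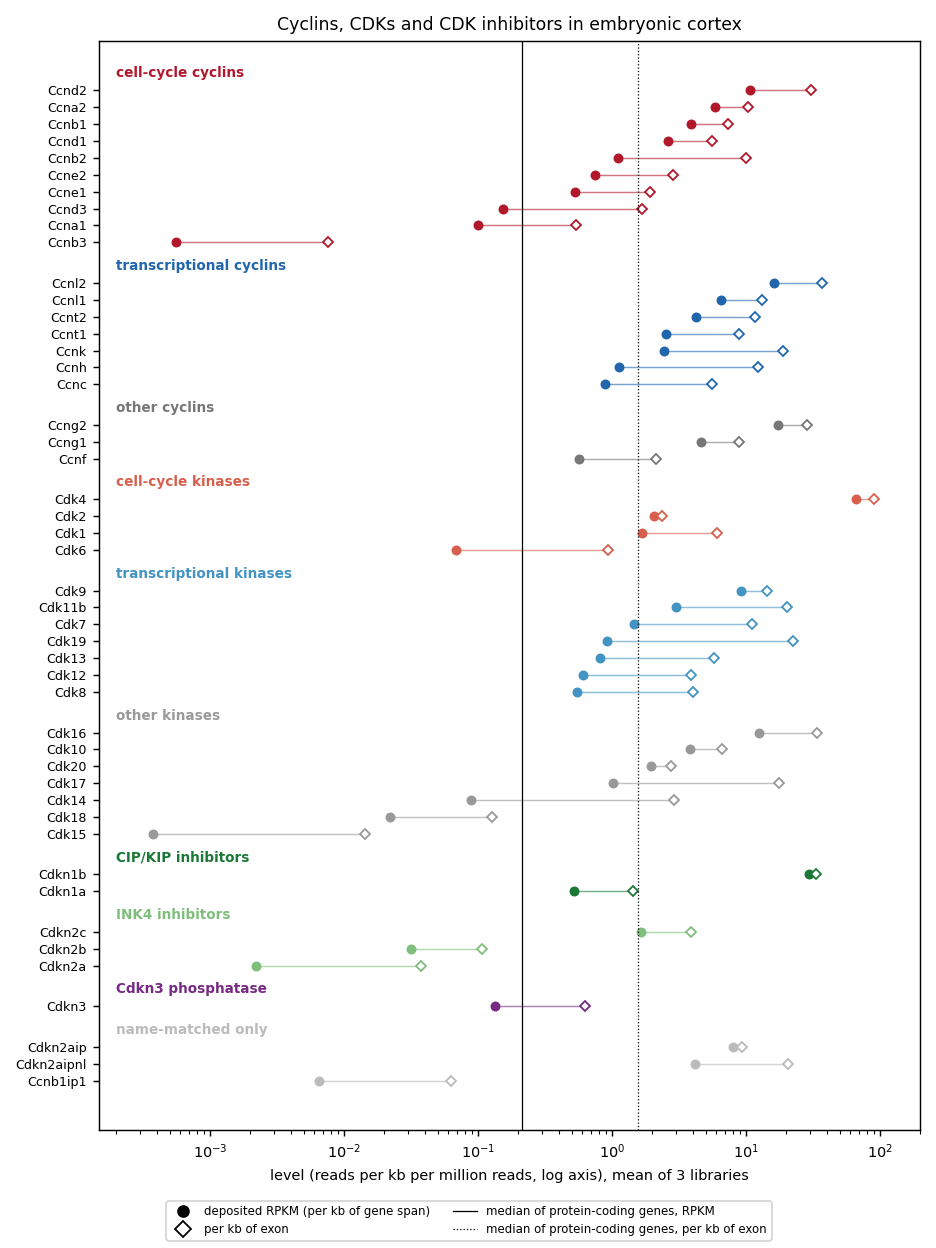
Level of each of the 47 members on a log axis, grouped by role, as deposited RPKM (filled circles) and per kilobase of exon (open diamonds), each from the authors' mean of 3 libraries. Cdk4 (66.7 RPKM) is the highest on both scales, and the lines are longest for Cdk15, Cdk14 and Cdk19, genes with long introns.

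The promoters of 40 members were in the RefSeq table for GRCm38.p6, as 45 windows from 250 bases before to 50 bases after the start. Ccna2, Ccnd1, Ccnd2, Ccne2, Ccnh, Cdk17 and Cdk19 had no entry. Each window was searched on both strands for 3 kinds of short motif known from cell-cycle promoters: an E2F word (TTTGGCGC, TTTCGCGC, TTTCCCGC or TTTGCCGC), the cell-cycle homology region or CHR (TTTGAA or TTCGAA), and the CCAAT box (CCAAT). None of these words contains another. The 200 bases before the start are shown for Cdk1, the member with all 3 kinds, for Ccnb2 and Ccnf, which carry CHR and CCAAT words, for Cdk2, with an E2F word and a CCAAT box, and for Cdk7, a transcriptional kinase with no match. All lie on the minus strand of GRCm38.p6 and read 5′ to 3′, with matches in capitals: Cdk1 at chr10:69352913-69353112, Ccnb2 at chr9:70421555-70421754, Ccnf at chr17:24251410-24251609, Cdk2 at chr10:128705052-128705251 and Cdk7 at chr13:100730943-100731142.
Cdk1: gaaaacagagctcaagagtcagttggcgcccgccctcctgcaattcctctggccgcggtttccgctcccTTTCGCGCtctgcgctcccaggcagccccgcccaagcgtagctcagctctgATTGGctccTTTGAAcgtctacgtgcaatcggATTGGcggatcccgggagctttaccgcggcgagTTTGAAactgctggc
Ccnb2: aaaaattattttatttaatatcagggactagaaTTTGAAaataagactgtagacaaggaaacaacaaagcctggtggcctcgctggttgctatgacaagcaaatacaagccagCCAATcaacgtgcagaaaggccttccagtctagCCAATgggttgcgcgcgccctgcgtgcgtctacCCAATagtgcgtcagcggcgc
Ccnf: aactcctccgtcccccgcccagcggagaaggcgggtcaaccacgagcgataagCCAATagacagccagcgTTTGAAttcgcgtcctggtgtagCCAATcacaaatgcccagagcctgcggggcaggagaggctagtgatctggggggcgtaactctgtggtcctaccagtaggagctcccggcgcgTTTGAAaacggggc
Cdk2: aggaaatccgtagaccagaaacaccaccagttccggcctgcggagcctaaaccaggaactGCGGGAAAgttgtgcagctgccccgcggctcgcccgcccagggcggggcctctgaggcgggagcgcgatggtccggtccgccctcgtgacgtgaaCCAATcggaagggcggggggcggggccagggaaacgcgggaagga
Cdk7: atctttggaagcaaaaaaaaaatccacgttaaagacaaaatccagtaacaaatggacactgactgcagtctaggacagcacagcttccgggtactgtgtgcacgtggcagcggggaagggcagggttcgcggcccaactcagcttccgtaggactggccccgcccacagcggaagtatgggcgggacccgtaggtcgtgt

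In Cdk1 the E2F word began 131 bases before the start and CHR words 71 and 15 bases before it, with CCAAT boxes at 208, 80 and 48. All 3 kinds together were found in 41 of 21262 windows of protein-coding genes (0.193%). E2F words were found in 3 of the 45 member windows, those of Cdk1, Cdk2 and 1 start of Cdkn2a, or 6.67%, where 2.85% of all windows held one. CHR words were found in 6 member windows (13.3%), below the 17.6% of all windows, and 3 windows held more than 1 such word (Cdk1, Ccnb2 and Ccnf), 6.67% against 2.20% of all windows. CCAAT boxes were found in 21 member windows (46.7%), against 38.2% of all. Among the 12 windows of transcriptional cyclins and kinases none held an E2F or CHR word and 5 held a CCAAT box (Ccnt2, Ccnc, Ccnk, Ccnl2 and Cdk9). Among the 11 windows of cell-cycle cyclins and kinases, 2 held an E2F word, 2 a CHR word and 6 a CCAAT box. The CHR share there, 18.2%, was near that of all windows. The cell-cycle genes Cdk4, Cdk6, Ccne1 and Ccnb3 held no match of any kind. These are matches of letters in a short window, and with so few windows the shares describe these genes alone.

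The D-type cyclins were led by Ccnd2. Ccnd2 stood at 10.7 RPKM (exon-based level 30.7), above 94.5% of protein-coding genes by the exon-based level. Ccnd1 stood at 2.62 RPKM (exon-based 5.57) and Ccnd3 at 0.155 RPKM (exon-based 1.67). Of the summed exon-based level of the D cyclins, Ccnd2 held 80.9%, Ccnd1 14.7% and Ccnd3 4.40%, and of their reads Ccnd2 held 87.6%. The ratio of Ccnd2 to Ccnd1 was 4.07 by RPKM and 5.50 by the exon-based level, and that of Ccnd2 to Ccnd3 was 69.0 and 18.4. The order of the 3 was thus the same on both scales. Of the exon bases of Ccnd1, 23.4% are shared with the gene Lto1 on the other strand, listed as LTO1, and whether reads were told apart by strand is not given.

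Of their 2 kinase partners, Cdk4 held nearly all the expression. Cdk4 stood at 66.7 RPKM (exon-based 90.05), rank 132 of all protein-coding genes by RPKM and 253 by the exon-based level. Cdk6, its paralog, stood at 0.0692 RPKM (exon-based 0.937), from 2461 estimated reads spread over a span of 190 kb. The ratio of Cdk4 to Cdk6 was 964 by RPKM (926 to 1004) but 96.1 by the exon-based level, and 22.3 in reads with no length. Of the exon bases of Cdk4, 19.7% are shared with Tspan31 on the other strand. Cdk4 also exceeded Ccnd2, 6.25-fold by RPKM and 2.94-fold by the exon-based level, while their reads were near equal (292.6 and 288.5 RPM).

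The E-type cyclins, which open S phase, were under 1 RPKM and close to each other. Both lay above the median protein-coding gene on both scales. Ccne2 stood at 0.744 RPKM (0.710 to 0.778, exon-based 2.86) and Ccne1 at 0.534 RPKM (0.501 to 0.569, exon-based 1.92). Their ratio, Ccne1 to Ccne2, was 0.719 by RPKM and 0.671 by the exon-based level. The counting intervals do not overlap, but there is no replicate spread to set this difference against. Of the exon bases of Ccne2, 17.4% are shared with Ints8 on the other strand. Cdk2, the kinase of these cyclins, stood at 2.07 RPKM and at an exon-based level of 2.36.

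Among the cyclins of S phase and mitosis, Ccna2, Ccnb1 and Ccnb2 were well above their germ-cell relatives. Ccna2, the A-type cyclin of dividing somatic cells, stood at 5.84 RPKM (exon-based 10.4). Ccna1, known from the testis, stood at 0.0993 RPKM (exon-based 0.543), so that Ccna2 was 58.8-fold above it by RPKM and 19.2-fold by the exon-based level. Ccnb3, known from germ cells, rested on an estimated 7 reads, at 0.000564 RPKM (0.000242 to 0.00124). The 4 germ cell markers fixed beside it, Dazl, Ddx4, Sycp3 and Stra8, were all under 1 RPKM on the deposited scale, the highest being Dazl at 0.0415.

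The order of the B cyclins turned with the length used. Ccnb1 stood at 3.88 RPKM and Ccnb2 at 1.11 RPKM, a ratio of 3.50. By the exon-based level Ccnb1 stood at 7.28 and Ccnb2 at 10.01, a ratio of 0.727, which was 1.23 with the longest transcript of each gene in place of all exons. No order of the pair is therefore given. Ccnb2 is also uncertain for another reason: its transcribed processed pseudogene Ccnb2-ps, which is no member, stood at 4.61 RPKM with 1986 estimated reads, against 2877 for Ccnb2 itself. Such copies are alike in sequence, and how the authors assigned reads that fit both is not given. The pseudogenes Ccnb1-ps and Ccnd3-ps rested on 1 and 9 estimated reads.

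Cdk1, the mitotic kinase, stood at 1.68 RPKM and at an exon-based level of 6.05, the latter above 69.3% of protein-coding genes. The ratio of Cdk1 to Cdk2 was 0.810 by RPKM (0.774 to 0.848), 2.56 by the exon-based level and 1.52 with the longest transcript. Cdk2 is a compact gene of 7.09 kb whose annotated exons cover 6.22 kb, and Cdk1 spans 17.8 kb with 4.93 kb of exon. Cdk1 stood at 0.433 times its partner Ccnb1 by RPKM and at 0.831 times by the exon-based level. Ccnf, the cyclin that serves a ubiquitin ligase and binds no CDK, stood at 0.564 RPKM (exon-based 2.12).

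The transcriptional cyclins were all present at moderate to high levels. All 7 reached an exon-based level of 1, between 5.61 and 36.7, and 6 of 7 reached 1 RPKM. Of all protein-coding genes, 54% and 31.6% did so. The partners of Cdk11, Ccnl2 and Ccnl1, were the highest by RPKM, at 16.1 and 6.48 (exon-based 36.7 and 13.1). Ccnt2 and Ccnt1, the cyclins of the elongation factor P-TEFb, stood at 4.22 and 2.53 RPKM (exon-based 11.6 and 8.90). Ccnk stood at 2.43 RPKM (exon-based 19.0), Ccnh at 1.12 (exon-based 12.3) and Ccnc at 0.891 (exon-based 5.61). Within the paralog pairs, Ccnl1 stood at 0.403 times Ccnl2 and Ccnt1 at 0.599 times Ccnt2 by RPKM, and at 0.356 and 0.768 times by the exon-based level.

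All 7 transcriptional kinases reached an exon-based level of 1, between 3.90 and 22.5, and 3 of 7 reached 1 RPKM. Of all protein-coding genes, 54% and 31.6% did so. Cdk9, the kinase of P-TEFb, stood at 9.12 RPKM (exon-based 14.4) and Cdk11b at 3.02 RPKM (exon-based 20.2). Cdk7, which is part of the general factor TFIIH and also activates the cell-cycle kinases, stood at 1.46 RPKM (exon-based 11.2). The rest were under 1 RPKM: Cdk19 at 0.912, Cdk13 at 0.814, Cdk12 at 0.606 and Cdk8 at 0.551. By the exon-based level these stood at 22.5, 5.73, 3.90 and 4.02. Their spans run from 71.6 kb for Cdk8 to 144 kb for Cdk19, against a median of 18.7 kb for protein-coding genes.

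The 2 Mediator kinases differed on every length used. Cdk8 stood at 0.604 times Cdk19 by RPKM, 0.178 times by the exon-based level and 0.447 times with the longest transcripts. Cdk12 and Cdk13, the kinases that phosphorylate the polymerase over long genes, had no order that held on every length: Cdk12 stood at 0.744 times Cdk13 by RPKM, 0.680 times by the exon-based level and 1.26 times with the longest transcripts. Against their cyclins, Cdk12 stood at 0.250 times Ccnk and Cdk8 at 0.618 times Ccnc by RPKM, and at 0.205 and 0.715 times by the exon-based level. With the longest transcripts Cdk8 stood at 1.23 times Ccnc, so no order of that pair is given. Cdk9 stood at 3.61 times Ccnt1 by RPKM and at 1.62 times by the exon-based level. For Cdk7 and Ccnh the ratio was 1.30 by RPKM and 0.908 by the exon-based level, so no order is given.

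**Figure D2:**
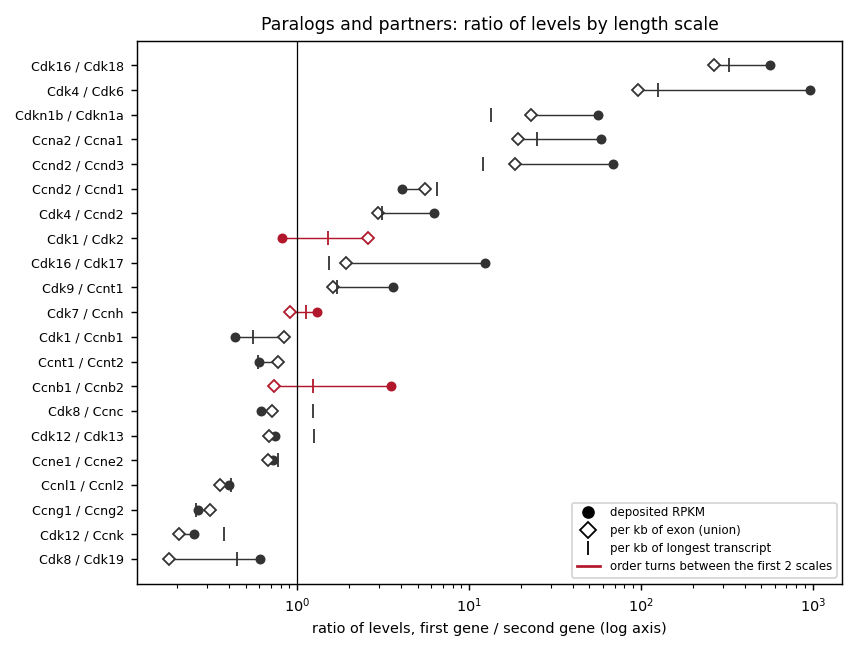
Ratio of levels for 21 pairs of paralogs or partners on a log axis, by deposited RPKM (circles), per kilobase of exon (diamonds) and per kilobase of the longest transcript (ticks). For 18 pairs the first 2 scales give the same order, and for 3 pairs in red (Cdk1 and Cdk2, Cdk7 and Ccnh, Ccnb1 and Ccnb2) they give opposite orders.

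Set against each other, the transcriptional cyclins had the higher median on both scales, though not by RPKM among members at 1 RPKM or more. The median of the 10 cell-cycle cyclins was 0.925 RPKM (exon-based 4.21) and that of the 7 transcriptional ones 2.53 RPKM (exon-based 12.3). On the log2(value + 0.1) scale the cell-cycle cyclins minus the transcriptional ones came to -1.38 by RPKM and -1.60 by the exon-based level. Without the germ-cell cyclins Ccna1 and Ccnb3 the difference was -0.54 by RPKM and -0.94 by the exon-based level. The latter was an alternative chosen after seeing the data. With only the 5 of 10 and 6 of 7 members at 1 RPKM or more, the difference by RPKM turned to 0.24. That cut is made on the compared value itself and removes more of the cell-cycle cyclins. It therefore cannot show what the order of the medians rested on, and it was not repeated by the exon-based level. Ccnd2, Ccna2, Ccnb1 and Ccnb2 stood within the range of the transcriptional cyclins on both scales, and Ccnd1 by RPKM only. The cell-cycle cyclins reached far lower, to Ccnb3.

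For the kinases the direction depended on the length. The median of the 4 cell-cycle kinases was 1.88 RPKM and that of the 7 transcriptional kinases 0.912 RPKM, a difference of 0.96 on the log2(RPKM + 0.1) scale. By the exon-based level the medians were 4.21 and 11.2, a difference of -1.53 on the log2(level + 0.1) scale. With only the 3 and 3 kinases at 1 RPKM or more, the difference by RPKM was -0.52. The median span was 12.4 kb for the cell-cycle kinases and 71.6 kb for the transcriptional ones, while the median exon length was 5.58 and 5.85 kb. Cdk4 stood above all 7 transcriptional kinases on both scales, and Cdk6 below all 7 on both. With 4 and 7 genes and no replicate, these medians describe these lists and carry no test.

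**Figure D3:**
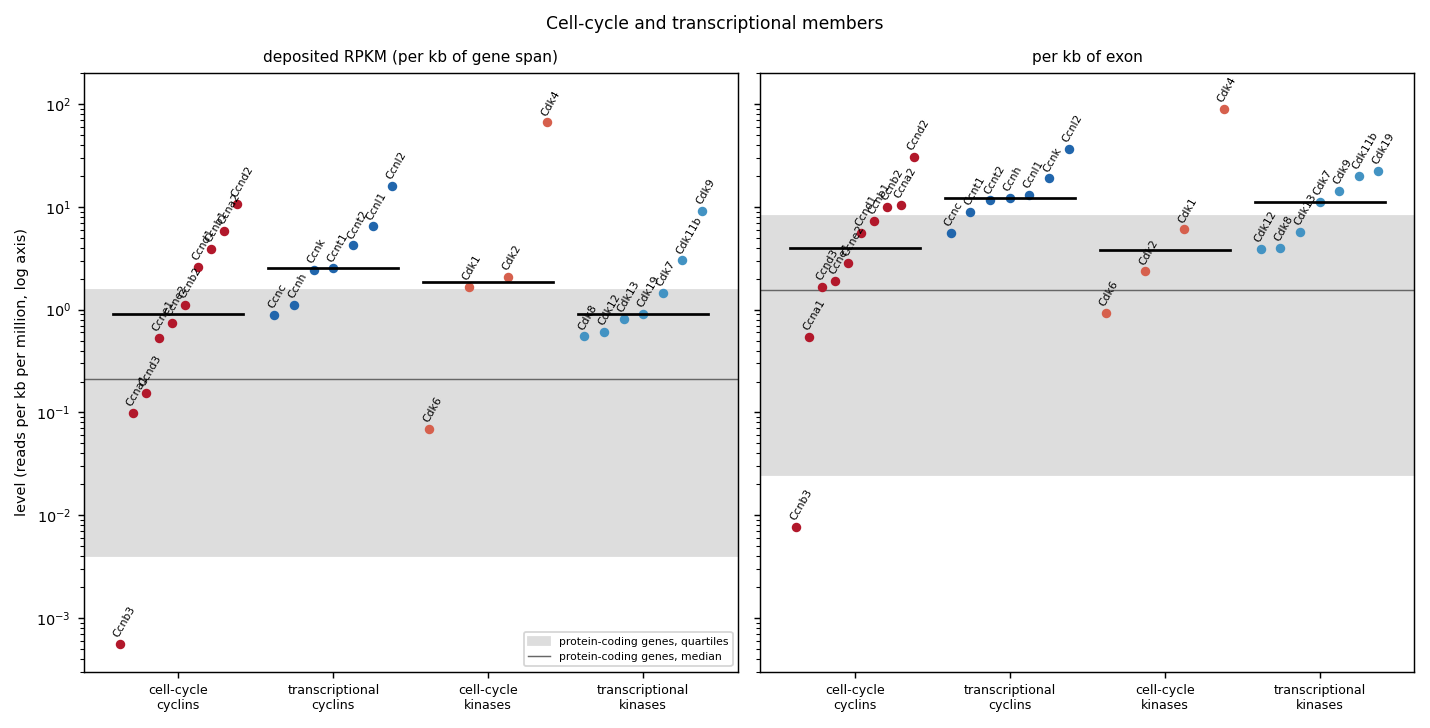
Levels of cell-cycle and transcriptional cyclins and kinases on a log axis, as deposited RPKM (left) and per kilobase of exon (right), with the median of each list (black bar) and the median and quartiles of all protein-coding genes (grey). All transcriptional cyclins but Ccnc (0.891 RPKM) lie above the cell-cycle median on the left and all 7 on the right, while the bar of the transcriptional kinases lies below that of the cell-cycle kinases on the left and above it on the right.

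Of the remaining kinases, Cdk16 was the highest and Cdk15 and Cdk18 were low on both scales, while Cdk17 was high by the exon-based level only. Cdk14 to Cdk18 belong to the PCTAIRE and PFTAIRE kinases, which act largely outside the division cycle. Cdk16 stood at 12.5 RPKM (exon-based 34.1) and Cdk17 at 1.02 RPKM (exon-based 17.7), a ratio of 12.3 by RPKM and 1.93 by the exon-based level. Cdk18 stood at 0.0222 RPKM (exon-based 0.128), 563-fold below Cdk16 by RPKM and 266-fold by the exon-based level. Cdk14, a kinase that works with cyclin Y in Wnt signalling, spans 617 kb and stood at 0.0888 RPKM, with 10281 estimated reads and an exon-based level of 2.90. Its relative Cdk15 rested on an estimated 7 reads, at 0.000374 RPKM (0.000156 to 0.000800). Cdk10 stood at 3.85 RPKM (exon-based 6.62) and Cdk20, known from cilia, at 1.97 RPKM (exon-based 2.75).

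The length scale moved single members far along the ranking of all genes. Cdk19 lay above 67.1% of protein-coding genes by RPKM and above 91.7% by the exon-based level, and Cdk17 above 68.7% and 88.7%. In the other direction Cdk2 lay above 79.3% by RPKM and 54.4% by the exon-based level, and Cdk20 above 78.6% and 56.5%. In all, 4 members (Cdk19, Cdk17, Cdk14 and Ccnh) gained at least 10 points of percentile and 10 lost as much.

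Among the G-type cyclins, Ccng2 stood far above Ccng1. Ccng2, linked to growth arrest, stood at 17.5 RPKM (exon-based 28.7). Ccng1, a target of p53, stood at 4.61 RPKM (exon-based 8.88), or 0.264 times Ccng2 by RPKM and 0.309 times by the exon-based level.

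Of the 5 inhibitors analysed, Cdkn1b was by far the highest, and other inhibitors of both types, Cdkn2d among them, have no value here. Cdkn1b, which encodes the CIP/KIP inhibitor p27, stood at 29.4 RPKM (exon-based 33.0), rank 285 of protein-coding genes by RPKM. Cdkn1a, which encodes p21, stood at 0.525 RPKM (exon-based 1.44), so that Cdkn1b was 56.0-fold above it by RPKM and 22.9-fold by the exon-based level. Of the summed exon-based level of the 5 inhibitors, Cdkn1b held 85.8% and Cdkn2c 10.1%.

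INK4 inhibitors bind Cdk4 and Cdk6 alone. Cdkn2c, which encodes p18, stood at 1.66 RPKM (exon-based 3.90). Its relatives Cdkn2b and Cdkn2a, both known from senescence, stood at 0.0316 RPKM (0.0209 to 0.0455, an estimated 28 reads) and 0.00219 RPKM (0.000912 to 0.00416, an estimated 8 reads). Cdkn3, a phosphatase that acts on CDKs and is known from dividing cells, stood at 0.135 RPKM (exon-based 0.631). Each of the last 3 lay under the median protein-coding gene on both scales.

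The 3 members that match by name only are neither cyclins nor kinases. Cdkn2aip and Cdkn2aipnl, named for binding a product of Cdkn2a and for likeness to that binder, stood at 7.93 and 4.16 RPKM (exon-based 9.28 and 20.6). Ccnb1ip1, a ubiquitin ligase gene known from meiosis, stood at 0.00647 RPKM, an estimated 22 reads, and its span differs most between annotations, RefSeq giving 0.351 times the GENCODE length.

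Other genes of the machinery were taken from lists chosen by function. The counts of all these lists stand beside the 31.6% of protein-coding genes at 1 RPKM and the 54% at an exon-based level of 1. Of 13 RB and E2F genes, 4 (30.8%) reached 1 RPKM, near the share of all genes, and all 13 an exon-based level of 1. The list medians were 0.532 RPKM and 4.71 by exon. E2f4 stood at 4.45 RPKM (exon-based 14.0) and Tfdp1, a partner of E2F proteins, at 2.48 (exon-based 26.9), so their order turned. E2f1 stood at 1.48 RPKM (exon-based 4.92) and E2f2, the lowest on both scales, at 0.207 RPKM (exon-based 1.002). Of 8 CDK-modifying enzymes and subunits 4 reached 1 RPKM (list medians 1.20 RPKM and 3.08 by exon). Cks1b, a small subunit of CDK complexes, stood at 5.27 RPKM, the activating phosphatase gene Cdc25b at 2.58, Cks2 at 2.33 and Mnat1, the assembly factor of Cdk7 and cyclin H, at 0.0633 RPKM (exon-based 1.77). Mnat1 was thus far below Cdk7 and Ccnh on both scales.

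For proteolysis, 4 of 6 genes reached 1 RPKM (list medians 1.56 RPKM and 7.65 by exon). Fzr1 and Cdc20, which direct the anaphase-promoting complex, stood at 6.08 and 5.28 RPKM and the inhibitor of that complex Fbxo5 at 1.88. Fbxw7, which targets cyclin E, was the lowest by RPKM, at 0.366, but above the list median by exon, at 8.51. By exon the lowest was Btrc at 4.32. Of 9 mitotic and proliferation genes, which include the members Ccnb1 and Cdk1, 6 reached 1 RPKM (list medians 1.68 RPKM and 7.28 by exon). Mki67 stood at 6.02 RPKM, Top2a at 4.63, Ccnb1 at 3.88 and the checkpoint kinase gene Bub1, the lowest, at 0.567 RPKM.

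Partners of the transcriptional kinases had a list median near that of the kinases by exon but a wider range. Of 12 such genes, Mnat1 again among them, 8 reached 1 RPKM. The list medians were 1.57 RPKM and 10.4 by exon, beside 0.912 RPKM and 11.2 by exon for the transcriptional kinases. By the exon-based level the partners ran from 0.102 to 26.8 and the kinases from 3.90 to 22.5. Hexim1, which holds Cdk9 inactive, stood at 8.25 on both scales, the highest by RPKM but under the list median by exon. The elongation factor gene Supt5 stood at 6.47 RPKM (exon-based 26.8). Aff4, a scaffold of the super elongation complex, stood at 4.99 RPKM (exon-based 26.4) and Ell2, the lowest on both scales, at 0.0153 RPKM.

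**Figure D4:**
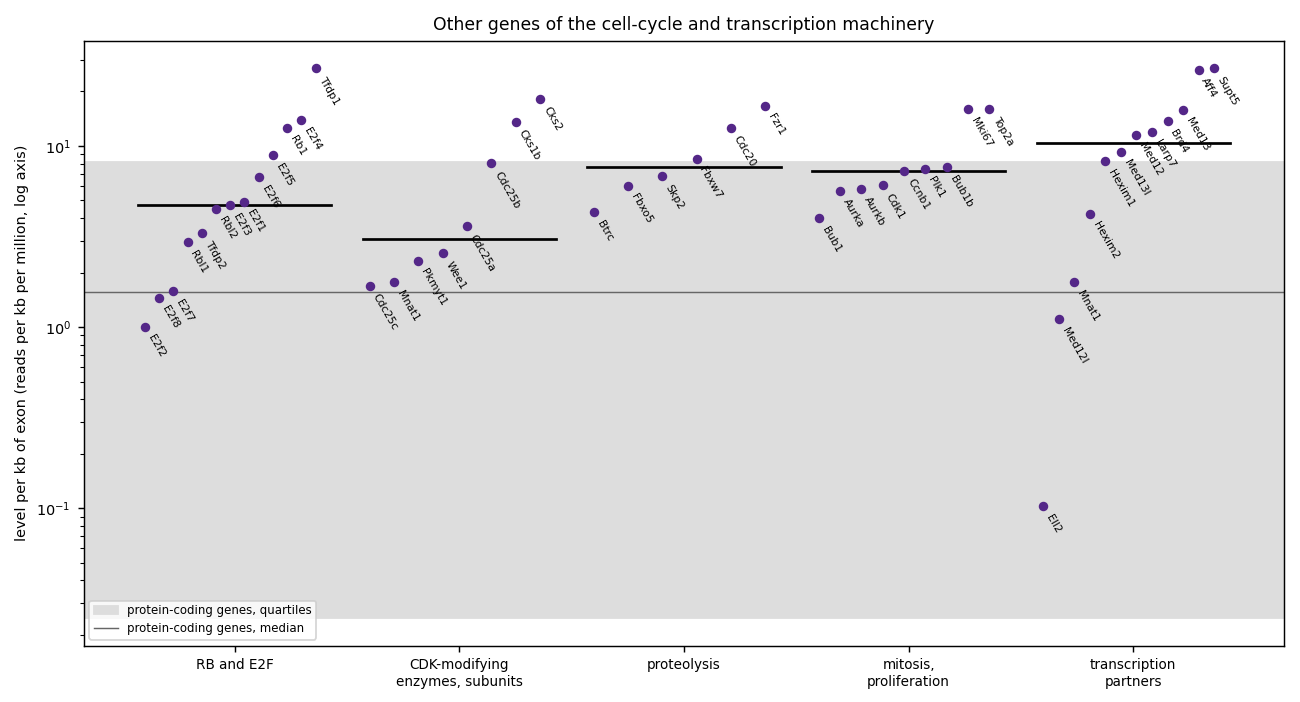
Level per kilobase of exon on a log axis for 5 lists of other genes of the machinery, with the list median (black bar) and the median and quartiles of protein-coding genes (grey). The 9 mitotic genes lie between 4.003 and 16.1, and the list of transcription partners reaches from Ell2 (0.102) to Supt5 (26.8).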

How the data were processed

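Per the labels' protocols, RNA was taken up in Trizol, cleaned on RNeasy Micro columns and turned into Illumina TruSeq libraries. The deposited table holds 1 RPKM value per gene, which the authors gave as a mean for the embryonic cortex (3 libraries by the labels, grouped by title). The submitters' processing notes name DESeq 1.16.0, HTSeq 0.6.0 and Cuffdiff 2.0.2, the aligners TopHat2 2.0.9 and Bowtie2 2.1.0, and the build mm9 (NCBIM37), with no role for each. Which of them made the RPKM values, read length, strand and the handling of reads with several matches are not given in the sources used here.

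Symbols, spans and exon lengths came from GENCODE M21, on a later build, for 32938 of 37991 gene IDs. Of the members, 47 had a RefSeq span, 37 of them within 10% of the GENCODE one, and 1 differed by over 1.5 times. Exon-based levels carry any error in both lengths. Depth was recovered from low values by a routine tested on simulated data. Exons are shared with another listed gene for over 10% of their bases in 5 members: Ccnd1, Cdk4, Ccne2, Ccna2 and Ccnb1ip1.

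All members are named, and of each list of other cyclins or pathway genes the 3 highest and the lowest by RPKM. Marker lists are given by counts and ranges. Members and lists were chosen with earlier results of these data known. No test was run. Medians were compared on log2(value + 0.1), which understates differences of low genes. Alternatives were other pseudocounts, lengths, thresholds and list contents, with a change over 1.5 times taken as a move. Python 3.11.15, pandas 2.3.3, numpy 2.4.6, scipy 1.17.1 and matplotlib 3.10.9 were used.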

Additional observations from a re-analysis of the deposited data

How the results depend on the processing

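For cyclins, the cell-cycle minus transcriptional difference (-1.38 by RPKM) kept its direction with other pseudocounts, exon lengths and means, and without the highest members or Cdk7 and Ccnh. It came to -2.38 with reads and no length and to -0.54 without Ccna1 and Ccnb3. It turned to 0.24 when only members at 1 RPKM or more were kept, which left 5 and 6 genes by a cut on the compared value itself. For kinases, the difference of 0.96 by RPKM turned to -1.53 per kilobase of exon, -1.73 with the longest transcript, -1.66 with reads and no length, and -0.52 with the 3 and 3 genes at 1 RPKM or more. With an alternative chosen after seeing the data, per kilobase of exon without the highest members, it was -1.72. Counts of members at 1 RPKM or more ran from 20 at a threshold of 2 RPKM to 38 by exon, within 1.5 times of 27. Ratios that turned were Ccnb1 to Ccnb2 (0.727 per kilobase of exon), Cdk1 to Cdk2 (2.56, and 1.52 with the longest transcript), Cdk7 to Ccnh (0.908), and, with the longest transcript only, Cdk12 to Cdk13 (1.26) and Cdk8 to Ccnc (1.23). The cause of these turns beyond the change of length was not tested. No paired analysis was possible because the 1 column used is a mean over libraries, and for the same reason no replicate could be left out.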

Other observations

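Cyclins whose symbols fall outside the name patterns were measured as well. Of 7 such genes 3 reached 1 RPKM, where 31.6% of protein-coding genes did. Ccni, an atypical cyclin, stood at 13.2 RPKM and at an exon-based level of 97.8, the latter above that of Cdk4 (90.05) and of every cyclin among the members. By RPKM it stood below Cdk4 (66.7), Ccng2 (17.5) and Ccnl2 (16.1). Ccnq, the partner of Cdk10, stood at 8.498 on both scales, where Cdk10 stood at 3.85 RPKM (exon-based 6.62). With its longest transcript Cdk10 stood at 11.4, and it had more reads than Ccnq (28.5 against 10.4 RPM). Ccnj stood at 1.93 RPKM and Ccno, known from multiciliated cells, was the lowest at 0.0748 RPKM. Ccny, the partner of Cdk14, stood at 0.591 RPKM (exon-based 13.4), a gene chosen after its value was seen.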
